A study of Mus musculus with 43 samples.

Results

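RNA of oligodendrocyte precursor cells (OPCs) was compared with RNA of oligodendrocytes purified from the same cerebral cortices, within immunocompetent mice and within Rag2-/- mice, and the size of the step from precursor to myelinating cell was then compared between the genotypes. All libraries labelled OPC or oligodendrocyte entered, 19 of the 43 libraries of the study: 6 OPC and 4 oligodendrocyte libraries of controls, and 5 OPC and 4 oligodendrocyte libraries of Rag2-/- mice. Mice were 3 months old and came as 6 littermate pairs of both sexes on a C57BL/6J background. Rag2-/- mice carry the null allele in every cell and lack mature T and B lymphocytes; the controls of pairs 1, 2, 3 and 5 were Rag2 +/- and those of pairs 4 and 6 Rag2 +/+. Each library was made from a single mouse by immunopanning, in which dissociated cells pass over dishes coated with antibodies and the bound cells are lysed: a PDGFRα dish took the OPCs after microglia had been removed, and a dish coated with the GalC antibody of a hybridoma, a line of antibody-making cells, took the oligodendrocytes after O4-binding cells had been removed and set aside. Oligodendrocyte libraries came from pairs 1, 3, 5 and 6, OPC libraries from all pairs in controls and from all but pair 5 in Rag2-/- mice, and 7 mice gave both. Libraries of a cell type were sequenced together on a lane, so the lane cannot be told apart from the cell type.

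OPCs are the dividing glial cells of the adult brain that bear PDGFRα and the proteoglycan NG2 (Cspg4), respond to PDGF-A and receive synaptic input from neurons. On differentiation they leave the cell cycle, pass through a premyelinating stage and become oligodendrocytes, which build myelin, the spiral of membrane that insulates axons. In the grey matter of the cortex OPCs and myelinating cells lie side by side through adult life, and the programme is known to be driven by Sox10 and Myrf and held back by factors such as Sox6, Hes5 and the Id proteins.

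Library totals ran from 7523154 to 23118497 gene counts in OPCs and from 9009143 to 14936552 in oligodendrocytes, and 33.5% to 47.8% of read pairs were assigned to no gene. Mitochondrially encoded genes took 45.8% to 60.1% of the counts of an oligodendrocyte library against 22.4% to 36.7% of an OPC library. The scaling of the libraries mattered. Levels here are normalized CPM, the usual counts-per-library-total unit after that total was multiplied by edgeR's TMM composition factor, which was 0.528 to 0.794 in oligodendrocytes and 1.23 to 1.61 in OPCs. With plain library totals in place of that factor the median log2 fold change of all genes moved from -0.11 to -1.24 in controls and to -1.22 in Rag2-/- mice, and counts under both scalings are given side by side where they part. With mitochondrially encoded genes left out of totals and TMM factors the medians were -0.10 in controls and -0.11 in Rag2-/- mice. The part of the mitochondrial counts in the shift under plain totals was not tested. As a check of labels, Rag2 (chr2:101455063-101462874, GRCm39) had counts in a single library, an OPC control, and could not serve, whereas Iftap, whose annotated span covers that of Rag2 on the other strand, lay at 4.80 to 12.97 normalized CPM in every OPC control, at 4.09 to 11.7 in every oligodendrocyte control, and at 0.279 or below in all Rag2-/- libraries. Summed markers of other cells differed between the dishes. Microglia markers (12 genes, none at 0 throughout a group) summed to 243.1 to 1406 normalized CPM in OPC libraries and 521 to 1829 in oligodendrocyte libraries, and were highest in the 4 libraries of pair 3. Neuron markers (15 genes) summed to 699 to 1648 in OPCs and 1716 to 5188 in oligodendrocytes, astrocyte markers (13 genes) to 2503 to 6425 and 1618 to 4329, and 11 mural and fibroblast markers to group medians of 139.7 and 247.1 in OPCs and 47.9 and 27.4 in oligodendrocytes (controls and Rag2-/- mice). Because whole dishes were lysed, fewer cells of a type and less RNA per cell cannot be told apart.

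The 2 purifications differed at many genes, and those gained and lost were largely shared by the genotypes. A gene was called at a Benjamini-Hochberg adjusted p under 0.05 in edgeR's quasi-likelihood test over 18657 genes. In controls 3707 genes (19.9%) were called, 2023 (10.8%) higher and 1684 (9.03%) lower in oligodendrocytes. In Rag2-/- mice 3781 (20.3%) were called, 1815 (9.73%) higher and 1966 (10.5%) lower. In both genotypes and with the same sign 2330 genes (12.5%) were called, 1422 (7.62%) higher and 908 (4.87%) lower, and 1863 of these (9.99% of all tested) differed by at least 2-fold in both, 1095 (5.87%) higher and 768 (4.12%) lower. All 8 oligodendrocyte libraries lay above all 11 OPC libraries for 996 genes (5.34%) and below them for 751 (4.03%). With the mouse as a block, which rests on the 7 mice that gave both libraries, 2115 genes were called in controls (1177 higher, 938 lower), 1673 in Rag2-/- mice (935 and 738) and 1251 in both (812 and 439). The split between gains and losses depended on the scaling: with plain library totals 9188 genes were called in controls, 588 higher and 8600 lower, and 9054 in Rag2-/- mice, 535 higher and 8519 lower, with 424 higher and 6466 lower in both. Counts for the gene lists below are to be set beside these all-gene values. They are 7.62% higher and 4.87% lower in both genotypes, and with plain library totals 424 and 6466 of 18657. Some genes stand in more than a single list, so the counts of the lists are not independent. Cspg4 is in the OPC identity and matrix lists, and Pdgfra in the OPC identity and growth factor lists. Hapln2 is in the mature and matrix lists, and Sirt2 and Gpr37 are in the premyelinating and myelin lists.

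**Figure D1:**
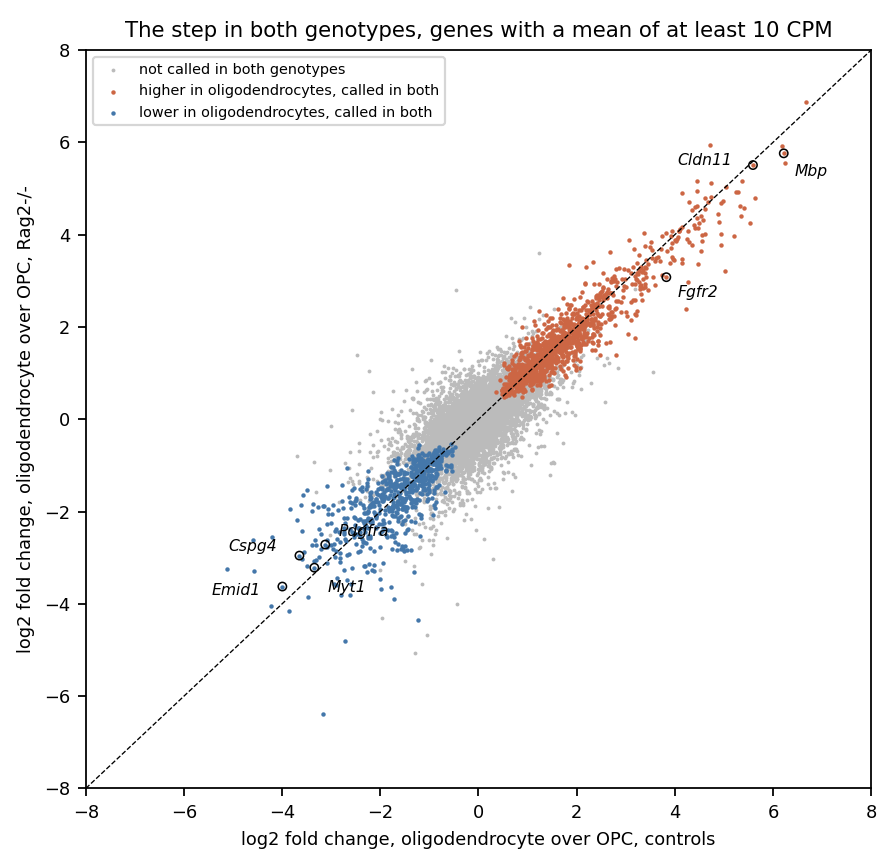
Log2 fold change of oligodendrocytes over OPCs in controls (x axis) and in Rag2-/- mice (y axis) for 8247 of the 8252 genes with a mean of at least 10 normalized CPM (the other 5 lie outside the axes), coloured by whether the gene was called in both genotypes; the dashed line marks equal fold changes. Points follow the line from Emid1 and Cspg4 at the lower left to Cldn11 and Mbp at the upper right.

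The fold changes of the 2 genotypes rest on separate libraries, but on littermate pairs and on a shared lane for each cell type. Summed neuron markers in oligodendrocytes were lowest in pair 3 and highest in pair 6 in controls (1831 and 5188 normalized CPM) and in Rag2-/- mice (1716 and 4216). Across genes, which are not independent replicates, the fold changes correlated with a Pearson r of 0.559 over all genes tested and 0.870 over the 8252 genes with a mean of at least 10 normalized CPM. The part of shared pairs and lanes in that correlation was not tested. Of the genes called in controls 96.1% had the same sign in Rag2-/- mice and 62.9% were called there with that sign, and of those called in Rag2-/- mice 94.7% had the same sign in controls and 61.6% were called. A single gene was called in both with opposite signs.

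Genes of the myelin sheath made up the strongest gains. Of 24 tested genes for myelin proteins, 18 were higher in oligodendrocytes of both genotypes and none was lower, with median log2 fold changes of 4.25 in controls and 4.00 in Rag2-/- mice against -0.11 over all genes in each; with plain library totals 16 rose and 4 fell. Summed over the list the level ran from 1298 to 2663 normalized CPM in OPC libraries and from 30640 to 40680 in oligodendrocyte libraries. Mbp, which encodes myelin basic protein that seals the inner faces of the membrane, stood at 142.1, 193.7 and 481 normalized CPM (lowest, median and highest of 6 OPC controls) and at 143.8, 515, 169.6, 593 and 402 in the 5 Rag2-/- OPC libraries. It reached 19020, 14170, 22310 and 19270 in the 4 control and 16120, 19030, 21470 and 23670 in the 4 Rag2-/- oligodendrocyte libraries, so that the cell types were far apart and the genotypes overlapped within each. The gain was 74.6-fold in controls (log2 6.22 ± 0.39 SE, edgeR adjusted p = 2.05e-10) and 54.3-fold in Rag2-/- mice (5.76 ± 0.41, 2.02e-09).

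Mobp, the second small basic myelin protein, rose from 62.6 ± 43.9 (SD, n = 6) to 4513 ± 771 (n = 4) normalized CPM in controls and from 83.4 ± 51.2 (n = 5) to 5070 ± 551 (n = 4) in Rag2-/- mice, 73.0-fold and 60.6-fold (edgeR adjusted p = 3.71e-09 and 2.23e-08). Per kilobase of annotated exon, mean levels in control oligodendrocytes were 1918 normalized CPM for Mbp, 503 for Mobp, 397 for Mal and 319 for Cnp.

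**Figure D2:**
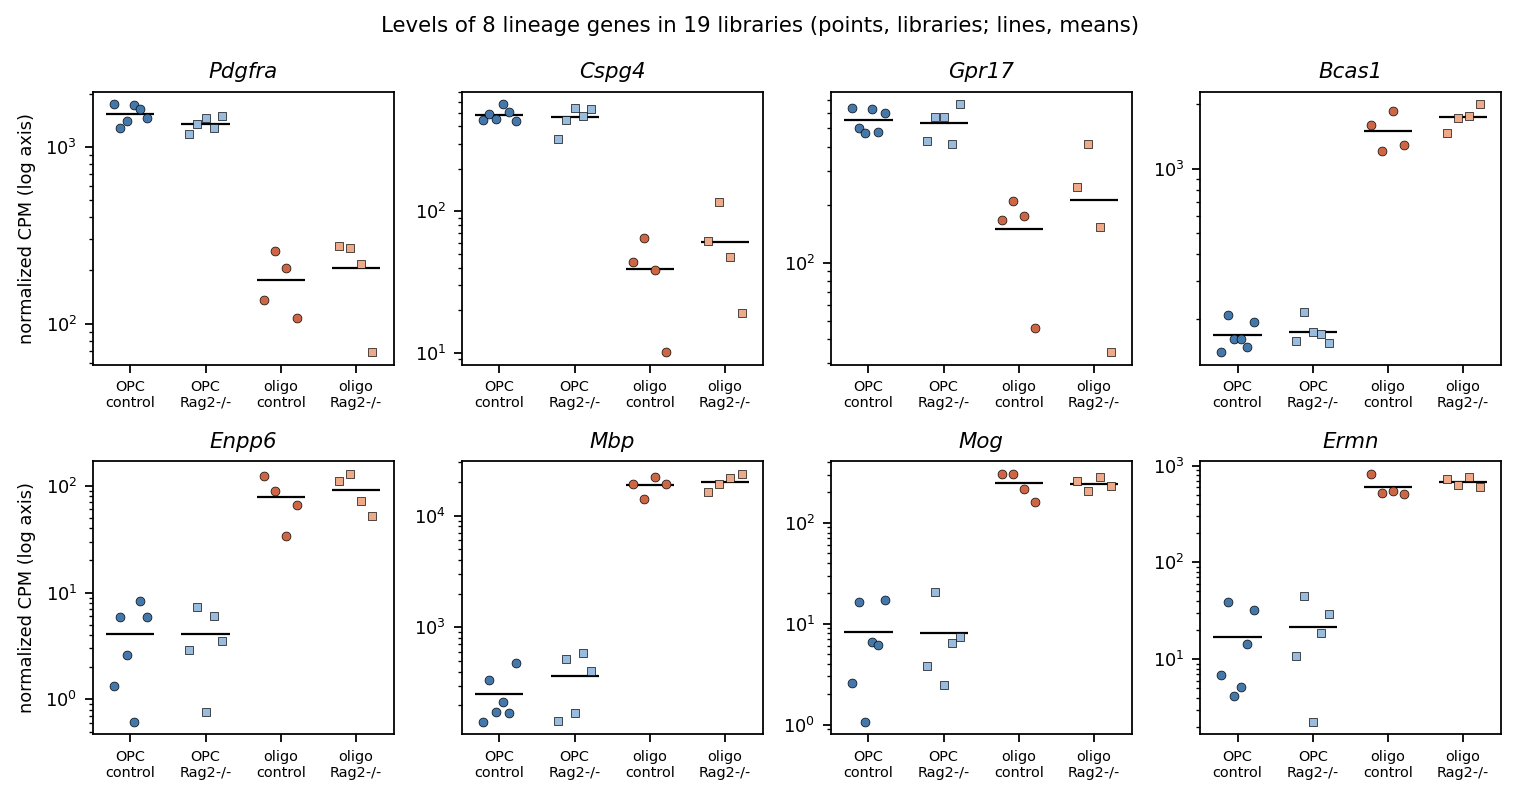
Normalized CPM (log axis) of 8 lineage genes in each of the 19 libraries, by cell type and genotype; points are libraries and lines are group means. Pdgfra, Cspg4 and Gpr17 lie lower and Bcas1, Enpp6, Mbp, Mog and Ermn higher in every oligodendrocyte library than in every OPC library, and pair 6 gave the lowest oligodendrocyte value of Pdgfra, Cspg4 and Gpr17 in both genotypes.

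Other proteins of the sheath moved with them. Cldn11, the claudin of the tight junctions between myelin layers, was 0.772, 3.27 and 11.5 normalized CPM in control OPCs (lowest, median and highest) and 3.01, 9.26, 0.716, 8.42 and 11.4 in Rag2-/- OPCs. It was 325, 223, 204 and 108.4 in control and 296, 273, 297 and 248 in Rag2-/- oligodendrocytes, apart from every OPC library and 48.3-fold and 45.5-fold higher (edgeR adjusted p = 2.19e-06 and 7.23e-06). Mog, the surface glycoprotein of the outermost layer, was gained 32.8-fold and 32.5-fold (log2 5.03 ± 0.56 and 5.02 ± 0.60), although 64.6% of its exonic bases are shared with another annotated gene. Mag, the adhesion molecule that faces the axon, rose 31.7-fold and 26.6-fold, Mal 40.1-fold and 24.8-fold, Opalin 30.8-fold and 25.6-fold, and Ermn, a cytoskeletal protein of late oligodendrocytes, 41.3-fold and 36.0-fold. Cnp, an enzyme that keeps cytoplasmic channels in myelin open, was already present at 116.4 ± 42.8 (SD, n = 6) in control OPCs and rose 11.6-fold to 1293 ± 381 (n = 4). The members that passed in neither genotype were Pllp (log2 -0.42 ± 0.20 in controls), Cd9 (-0.31 ± 0.30), Omg (0.23 ± 0.16), Jam3 and Adgrb3, and Pmp22 passed in controls alone.

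To show where such genes begin, the 200 bases before the start of the canonical transcript are given for 2 gained and 2 lost genes, 5′ to 3′ on the coding strand, from the GRCm39 genome with GENCODE M39 annotation. That start lies inside the annotated gene span for Pdgfra. Capitals mark any match, on either strand, to the Myrf motif CTGGCAC, to either Sox motif (ACAAAG or else ACAATG) or to either E-box (CAGCTG or else CAGATG).
Cldn11 (gained), chr3:31203700-31203899, plus strand: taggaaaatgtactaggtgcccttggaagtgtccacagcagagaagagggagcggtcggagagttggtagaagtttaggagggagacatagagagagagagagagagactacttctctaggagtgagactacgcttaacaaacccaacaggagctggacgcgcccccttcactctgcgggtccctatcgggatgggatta
Mog (gained), chr17:37334351-37334550, minus strand: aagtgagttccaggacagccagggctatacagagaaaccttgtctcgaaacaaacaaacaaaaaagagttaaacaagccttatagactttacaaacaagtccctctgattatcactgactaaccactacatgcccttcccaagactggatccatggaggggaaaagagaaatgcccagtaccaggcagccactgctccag
Pdgfra (lost), chr5:75312722-75312921, plus strand: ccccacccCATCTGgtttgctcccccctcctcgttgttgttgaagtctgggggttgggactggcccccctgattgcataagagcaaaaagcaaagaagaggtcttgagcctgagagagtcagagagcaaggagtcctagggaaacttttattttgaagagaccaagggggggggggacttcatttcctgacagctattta
Cspg4 (lost), chr9:56772117-56772316, plus strand: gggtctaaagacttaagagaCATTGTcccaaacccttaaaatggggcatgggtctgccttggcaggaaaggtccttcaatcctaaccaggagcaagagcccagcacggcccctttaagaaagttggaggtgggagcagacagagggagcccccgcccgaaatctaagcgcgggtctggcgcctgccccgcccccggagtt
Pdgfra held CAGATG on the opposite strand and Cspg4 held ACAATG on the opposite strand, and the windows of Cldn11 and Mog held none of the 5 motifs. The same window of Myt1, also a lost gene, was read too and held none of them. Over windows of 300 bases, from 250 before to 50 after the start, CTGGCAC was found in 5.88% of the 834 protein-coding genes gained at least 2-fold in both genotypes, 6.03% of the 713 lost and 5.03% of all 13865 tested. The Sox motifs ACAAAG and ACAATG were found in 15.7% and 10.1% of gained, 18.1% and 6.87% of lost and 15.1% and 7.58% of all promoters, and the E-box CAGATG in 13.3%, 13.6% and 12.9%. The E-box CAGCTG was found in 134 of the gained (16.1%), 123 of the lost (17.3%) and 1946 of all 13865 promoters. Median GC content was 58.7%, 58.3% and 58.0%.

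Genes of mature, myelin-bearing oligodendrocytes were gained as uniformly. Of 23 tested, 21 were higher in both genotypes and none was lower (18 and none with plain library totals, 20 and none with the mouse as a block), with median log2 fold changes of 3.52 and 3.31. Aspa, which breaks down N-acetylaspartate to supply acetate for lipid, stood at 0.695, 3.93 and 8.93 normalized CPM in control OPCs (lowest, median and highest) and at 2.96, 15.8, 2.25, 7.40 and 14.1 in Rag2-/- OPCs. It stood at 204, 174.8, 101.4 and 119.2 in control and 105.1, 165.0, 197.2 and 114.2 in Rag2-/- oligodendrocytes, all above the OPC libraries, 46.3-fold and 19.2-fold higher (edgeR adjusted p = 8.47e-08 and 3.52e-06). Trf, the iron carrier transferrin, rose 16.9-fold and 16.8-fold, Car2, a carbonic anhydrase, 13.4-fold and 8.77-fold, and Ptgds, which makes prostaglandin D2, 7.67-fold and 6.32-fold. Apod, a lipid carrier, rose 6.92-fold and 5.27-fold, and 26.4% of its exonic bases overlap another gene. Enpp2, the autotaxin that makes lysophosphatidic acid, rose 4.14-fold and 4.43-fold, and its receptor Lpar1 37.7-fold and 30.3-fold. Klk6, a protease of a subset of mature cells, was at 0.993 normalized CPM or below in control OPCs and at 26.9, 8.79, 5.22 and 9.44 in control oligodendrocytes (edgeR adjusted p = 5.34e-04), and its call in Rag2-/- mice (adjusted p = 6.17e-03) was lost with the mouse as a block (0.0715). Ninj2 passed in neither genotype and S100b in Rag2-/- mice alone (log2 0.86 ± 0.19, edgeR adjusted p = 2.88e-03, with the block 0.0887).

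Junctional proteins were mostly gained. Of 15 tested genes for proteins of the paranode, the node and gap junctions, 10 were higher and 2 lower in both genotypes, with the mouse as a block 8 and 2, and with plain library totals 7 and 4. Nfasc, whose glial form anchors the paranodal loops, stood at 88.7, 107.5 and 133.3 normalized CPM in control OPCs (lowest, median and highest) and at 92.0, 122.0, 103.6, 111.4 and 95.2 in Rag2-/- OPCs. It stood at 883, 645, 678 and 436 in control and 792, 717, 749 and 487 in Rag2-/- oligodendrocytes, all above the OPCs and 6.09-fold and 6.54-fold higher. Cntn2, the contactin beside the paranode, rose from 20.1 ± 9.94 (SD, n = 6) to 324.6 ± 107.7 (n = 4) in controls (log2 4.11 ± 0.38), whereas Cntn1, a contactin of axons and precursors, fell by 1.94 ± 0.22 and 1.64 ± 0.22 on the log2 scale. Gjb1, a connexin of gap junctions, rose 10.96-fold and 7.02-fold from means of 3.30 and 5.10.

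Genes of the premyelinating stage moved in both directions. Cells that bound O4 had been removed before the GalC dish, so the purification and the step cannot be told apart in these genes. Of 20 tested, 7 were higher and 3 lower in both genotypes, beside 7.62% and 4.87% of all genes tested. With plain library totals the counts were 5 and 8, beside 424 and 6466 of all 18657 genes. Enpp6, a choline phosphodiesterase of newly formed oligodendrocytes, was 0.618, 4.23 and 8.39 normalized CPM in control OPCs (lowest, median and highest) and 2.91, 7.40, 0.767, 5.98 and 3.51 in Rag2-/- OPCs. It was 124.3, 88.7, 33.8 and 65.9 in control and 111.9, 129.7, 72.1 and 52.5 in Rag2-/- oligodendrocytes, 20.5-fold and 23.2-fold higher without overlap (edgeR adjusted p = 1.60e-05 and 1.87e-05). Bcas1, another early marker, rose 8.91-fold and 9.82-fold. Gpr17, a receptor of cells about to differentiate, was counted in the list of OPC identity and not in the premyelinating list. It was lower, at 469, 548 and 631 in control OPCs (lowest, median and highest) against 165.4, 209, 174.4 and 46.0 in control oligodendrocytes. It was 3.70-fold lower in controls (adjusted p = 3.57e-03) and 2.63-fold lower in Rag2-/- mice (adjusted p = 0.0301, edgeR), the second being lost with the mouse as a block (0.128). Itpr2, an intracellular calcium channel used as a label of differentiating cells, was 2.82-fold and 2.47-fold lower. Tcf7l2, a Wnt effector expressed transiently, did not pass in either genotype (log2 0.00 ± 0.24 and 0.63 ± 0.24, edgeR adjusted p = 0.995 and 0.0705), nor did Bmp4 (-0.41 ± 0.98 and -1.69 ± 1.05) or the kinase Fyn (-0.28 ± 0.29 and 0.08 ± 0.29); under plain library totals the log2 values of Tcf7l2 were -1.15 and -0.49 and that of Fyn in Rag2-/- mice -1.04.

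Precursor identity was lost nearly throughout its list. Of 20 tested genes for the surface and identity of OPCs, 19 were lower and none higher in oligodendrocytes of both genotypes, C1ql3 being the exception (log2 -0.53 ± 0.49 and -0.74 ± 0.51), with median log2 fold changes of -2.91 and -2.34; with plain library totals all 20 were lower, and with the mouse as a block 15. The list summed to 7216 to 9543 normalized CPM in OPC libraries and 737 to 2266 in oligodendrocyte libraries. Pdgfra, the receptor for PDGF-A and the target of the OPC dish, stood at 1280, 1543 and 1750 in control OPCs (lowest, median and highest) and at 1185, 1346, 1467, 1285 and 1496 in Rag2-/- OPCs. In oligodendrocytes it was 135.9, 258, 207 and 108.1 in controls and 274.5, 269.7, 218 and 68.9 in Rag2-/- mice, a fall without overlap of 8.71-fold (log2 -3.12 ± 0.31, edgeR adjusted p = 1.39e-07) and 6.57-fold (-2.72 ± 0.31, 1.09e-06). Since the cells were sorted on its protein, this difference also describes the purification.

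Genes whose proteins were not used in the sort also fell. They belong to the identity list of the same sorted cells, so the purification and the step cannot be told apart in them either. Cspg4, the NG2 proteoglycan, stood at 436, 471 and 575 in control OPCs (lowest, median and highest) and at 325, 442, 541, 476 and 530 in Rag2-/- OPCs, against 43.8, 64.6, 38.6 and 10.0 in control and 61.7, 116.2, 47.8 and 18.9 in Rag2-/- oligodendrocytes. It fell 12.5-fold and 7.75-fold with no overlap (edgeR adjusted p = 1.89e-06 and 2.50e-05). Ptprz1, a receptor phosphatase of precursors, fell 7.13-fold and 5.48-fold, Cacng4, an auxiliary subunit of AMPA receptors, 7.58-fold and 5.32-fold, and C1ql1, a secreted C1q-like protein, 7.58-fold and 7.97-fold. Per kilobase of annotated exon, mean levels in control OPCs were 125.1 normalized CPM for Pdgfra, 114.3 for Ptprz1, 102.0 for Gpr17 and 40.5 for Cspg4, and in control oligodendrocytes 14.4, 16.2, 27.6 and 3.28. Residual levels were lowest in the oligodendrocyte libraries of pair 6 for Pdgfra, Cspg4 and Gpr17 in both genotypes.

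The 12 protein-coding genes lost most, ranked by the smaller of the 2 fold changes among genes at 50 normalized CPM or more in OPCs, began with Emid1, a secreted matrix protein. It stood at 55.8, 63.3 and 71.1 in control OPCs (lowest, median and highest) and at 48.1, 63.8, 69.5, 52.7 and 66.8 in Rag2-/- OPCs, and at 4.81, 9.03, 2.05 and 0.761 in control and 7.74, 9.75, 1.89 and 1.39 in Rag2-/- oligodendrocytes. That was a fall without overlap of 15.95-fold and 12.35-fold (edgeR). Myt1, a zinc finger factor of precursors, followed with 10.2-fold and 9.30-fold, the kinase Stk32a with 11.2-fold and 9.10-fold, Nxph1, a ligand of neurexins, with 9.90-fold and 8.31-fold, and the guidance cue Ntn1 with 7.39-fold and 10.8-fold. The others were Gucy2f, Cspg4, C1ql1, Susd5, Galnt10, Cav1 and Mmp15, between 6.97-fold and 14.1-fold lower. In each the libraries of the cell types were apart, which a ranking by fold change in the same libraries favours. Over all genes tested 751 (4.03%) lay apart in that direction. Of the 12, the call of Gucy2f in Rag2-/- mice was lost with the mouse as a block (edgeR adjusted p = 0.0531). Among the 12 gained most by the same rule were Mobp, Mbp, Cldn11, Ermn, Mog, Lpar1, Prr18, Mag, Opalin, Mal and St18. Prr18, a proline-rich protein, had the smallest error of those named, rising 26.8-fold (log2 4.74 ± 0.19) and 34.9-fold (5.13 ± 0.20) from 14.6 ± 2.28 (SD, n = 6) in control OPCs to 391 ± 95.4 (n = 4) in control oligodendrocytes.

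**Figure D3:**
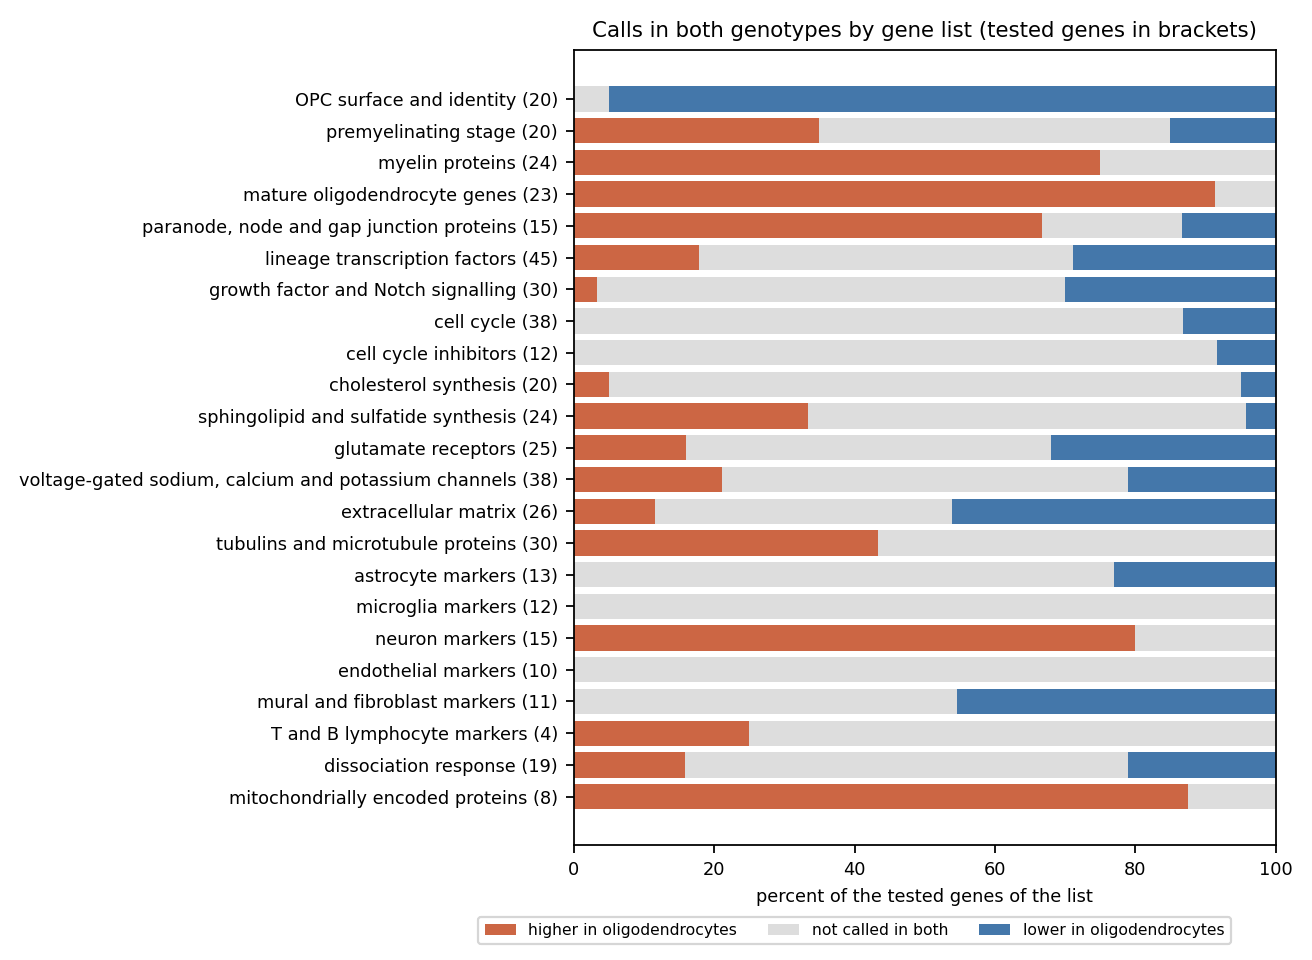
Percent of the tested genes of each list called higher (orange), lower (blue) or not called (grey) in both genotypes under TMM scaling; the number tested stands in brackets. Most of the OPC identity list was lower (19 of 20), and most of the mature (21 of 23), mitochondrial (7 of 8), neuron (12 of 15) and myelin (18 of 24) lists was higher. With plain library totals 2 neuron markers were higher. With those totals the sphingolipid, premyelinating and tubulin lists held more lower than higher calls, as did all genes tested (424 higher and 6466 lower of 18657).

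The factors that specify the lineage included genes that rose, genes that fell and genes that did not pass. Of 45 tested lineage transcription factors, 8 were higher and 13 lower in both genotypes (5 and 32 with plain library totals, 7 and 8 with the mouse as a block), with median log2 fold changes of -0.65 and -0.74. Myrf, the membrane-bound factor needed for myelin gene expression, stood at 32.5, 43.8 and 63.5 normalized CPM in control OPCs (lowest, median and highest) and at 30.1, 46.8, 41.5, 40.2 and 64.3 in Rag2-/- OPCs. It stood at 439, 325, 289 and 213 in control and 369, 295, 318 and 431 in Rag2-/- oligodendrocytes, 7.04-fold and 7.89-fold higher without overlap (edgeR adjusted p = 8.92e-09 and 1.39e-08). St18, a relative of Myt1, rose from 2.16 ± 1.25 (SD, n = 6) to 85.9 ± 10.6 (n = 4) in controls and from 3.48 ± 2.84 (n = 5) to 79.1 ± 14.6 (n = 4) in Rag2-/- mice, 42.7-fold and 23.7-fold, while Myt1 fell as given above. Nkx6-2, a homeodomain factor of myelinating cells, rose 18.4-fold and 16.3-fold from a mean under 1 normalized CPM, and Zfp536, Zeb2, Etv1, Carhsp1 and Bcl11a made up the rest of the gains. Since neuron markers were higher in the oligodendrocyte libraries, neuronal RNA may enter such gains, and its part was not tested.

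Sox6, which represses myelin genes in precursors, was 204.7, 232 and 247 normalized CPM in control OPCs (lowest, median and highest) and 202, 212, 205.5, 220 and 235 in Rag2-/- OPCs, against 45.5, 61.8, 28.2 and 7.003 in control and 60.7, 69.0, 17.6 and 38.2 in Rag2-/- oligodendrocytes. It fell 6.57-fold and 4.74-fold with no overlap (edgeR adjusted p = 3.08e-05 and 2.75e-04). Olig2, a factor of the whole lineage, fell 2.90-fold and 2.72-fold, and Etv5, a target of receptor tyrosine kinase signalling, 2.48-fold and 2.90-fold. Olig1 fell 2.68-fold in controls and 1.82-fold in Rag2-/- mice, and Sox4 2.35-fold and 1.78-fold, both losing the Rag2-/- call with the mouse as a block (adjusted p = 0.0851 and 0.133). Sox5, Sox2, Zfp24, Prrx1, Hey1, Etv4 and Myt1 were among the other falls.

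Several factors found in both stages did not pass. Sox10, which acts at every stage of the lineage, had log2 fold changes of -0.27 ± 0.20 and -0.25 ± 0.21 (edgeR adjusted p = 0.372 and 0.434), with 194.1 to 289 normalized CPM in control OPCs and 104.7 to 274 in control oligodendrocytes, which overlapped. Sox8 (-0.48 ± 0.22 and -0.39 ± 0.23), Nkx2-2 (-0.64 ± 0.33 and -0.11 ± 0.33) and Zfp488 (-0.98 ± 0.46 and -0.98 ± 0.47) did not pass, though for Zfp488 every oligodendrocyte library lay below every OPC library. The inhibitor Hes5 passed in controls alone (log2 -3.18 ± 1.05, edgeR adjusted p = 0.0366, against -2.46 ± 1.04 and 0.103 in Rag2-/- mice) as did Sox11, and Id2 in neither; 32.1% of the exonic bases of Hes5 and 36.2% of those of Id2 overlap another gene.

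**Figure D4:**
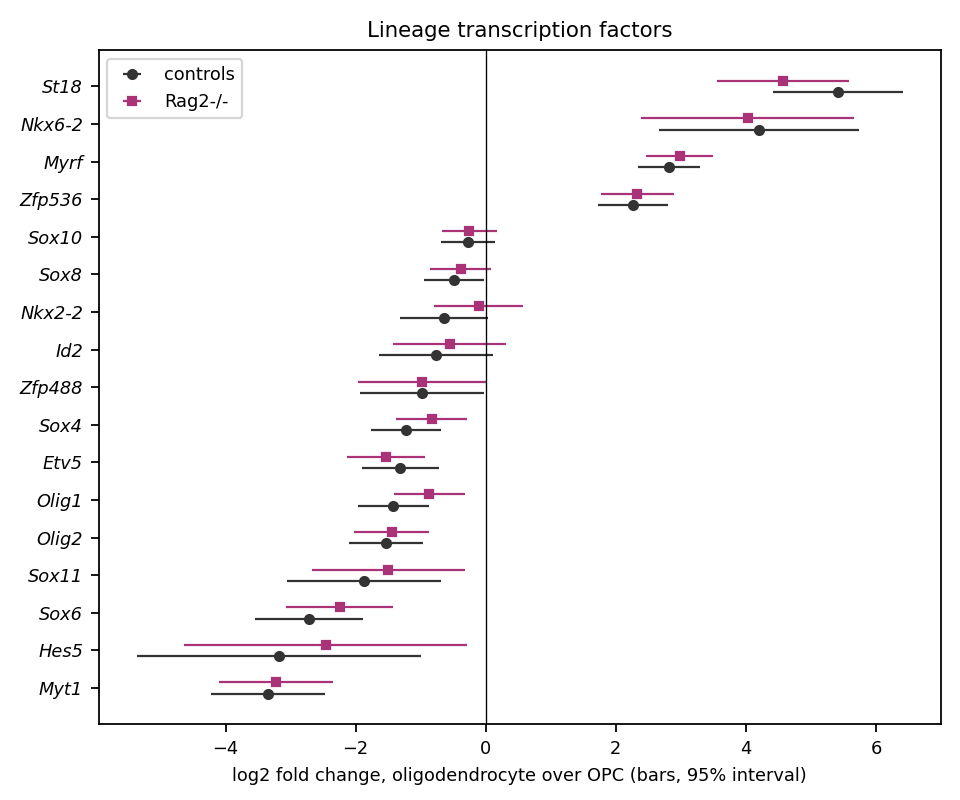
Log2 fold change of oligodendrocytes over OPCs for 17 lineage transcription factors in controls (circles) and Rag2-/- mice (squares), with 95% intervals from the edgeR fit. St18, Nkx6-2, Myrf and Zfp536 lie above 0 in both genotypes, Sox10 and Nkx2-2 straddle it, and Myt1, Hes5 and Sox6 lie lowest in controls.

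Of 30 tested receptors and feedback genes of growth factor and Notch signalling, 9 were lower, 1 higher and 20 not called in both genotypes (lower and higher 26 and 1 with plain library totals, 8 and 1 with the mouse as a block), with median log2 fold changes of -1.39 and -1.41. The gene that rose was Fgfr2, the FGF receptor of myelinating cells, which stood at 11.4, 19.7 and 42.9 normalized CPM in control OPCs (lowest, median and highest) and at 357, 362, 315 and 267 in control oligodendrocytes. In Rag2-/- mice it stood at 59.9, 49.7, 8.29, 48.9 and 31.9 in OPCs and at 330, 388, 377 and 249.8 in oligodendrocytes, so the gains of 14.2-fold and 8.45-fold were without overlap (edgeR adjusted p = 4.94e-07 and 1.70e-05). Fgfr1, the receptor of dividing precursors, moved the other way, by -1.55 ± 0.33 and -2.28 ± 0.34 on the log2 scale, as did Fgfr3 and the neurotrophin receptor Ntrk2 (-1.64 ± 0.14 and -1.58 ± 0.15). Notch1 fell 3.63-fold and 5.82-fold, its non-canonical ligand Dner also fell, and the Spry4 inhibitor of receptor tyrosine kinase signalling fell 6.37-fold and 11.2-fold. Erbb3, the neuregulin receptor, did not pass (-0.05 ± 0.32 and 0.41 ± 0.33). Dll3 passed in controls alone (adjusted p = 0.0293, edgeR) and not with the mouse as a block (0.0539).

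Of 38 tested cell cycle genes, 5 were lower and none higher in both genotypes, namely Plk1, Kif11, Ube2c, Ccnd1 and Cdk4, and with the mouse as a block 1. Over all genes tested 4.87% were lower and 7.62% higher in both. With plain library totals 24 were lower, beside 6466 of all 18657 genes. The median log2 fold changes of the list were -1.39 and -1.57 against -0.11 over all genes in each genotype. Ccnd1, cyclin D1, stood at 91.2, 114.1 and 128.1 normalized CPM in control OPCs (lowest, median and highest) and at 74.6, 103.1, 114.2, 102.7 and 113.5 in Rag2-/- OPCs, against 19.8, 36.0, 14.4 and 8.83 in control and 39.3, 42.4, 29.4 and 8.91 in Rag2-/- oligodendrocytes. That fall of 5.75-fold and 3.43-fold was without overlap (edgeR adjusted p = 3.11e-05 and 1.15e-03), with 48.4% of its exonic bases shared with another gene. Mki67, a marker of dividing cells, was 28.2 ± 9.12 (SD, n = 6) in control OPCs and 13.6 ± 9.37 (n = 4) in control oligodendrocytes, and passed in Rag2-/- mice (log2 -1.58 ± 0.46, adjusted p = 0.0171) but not in controls (-1.07 ± 0.44, 0.0933), nor with the mouse as a block (0.105 in Rag2-/- mice); the topoisomerase Top2a was alike (Rag2-/- adjusted p = 2.44e-03, with the block 0.0749, edgeR). Ccnd2 did not pass (0.22 ± 0.30 and 0.43 ± 0.31), and of 12 cell cycle inhibitors Cdkn2b alone was lower in both (none with the mouse as a block), while Cdkn1c was not called (-1.94 ± 0.88 and 0.06 ± 0.82).

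Of 24 tested sphingolipid and sulfatide genes 8 were higher and 1 lower in both genotypes, 7 and none with the mouse as a block, a direction that turned with plain library totals (5 higher, 12 lower, beside 424 and 6466 of all 18657 genes). Fa2h, which hydroxylates the fatty acids of myelin galactolipids, stood at 46.8, 65.2 and 106.4 normalized CPM in control OPCs (lowest, median and highest) and at 49.8, 89.1, 50.4, 45.4 and 88.3 in Rag2-/- OPCs, against 617, 518, 324 and 368 in control and 517, 520, 572 and 428 in Rag2-/- oligodendrocytes. It rose 6.75-fold and 7.93-fold with no overlap (edgeR adjusted p = 2.97e-08 and 2.91e-08). Ugt8a, the galactosyltransferase that makes galactocerebroside, the GalC bound by the oligodendrocyte dish, rose 4.03-fold and 4.67-fold, Elovl7, an elongase, 6.98-fold and 7.41-fold, and Cers2, which makes very long chain ceramides, 3.34-fold and 4.45-fold (29.3% of its exonic bases overlap another gene). Scd1, a fatty acid desaturase, rose by 3.36 ± 0.19 and 3.24 ± 0.20 on the log2 scale, with Degs1, Elovl1 and Scd2 the other gains and Cers4 the fall. Gal3st1, the sulfatide synthase, did not pass (-0.57 ± 0.30 and 0.49 ± 0.31).

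Of 20 tested genes of cholesterol synthesis 1 was higher (Ebp) and 1 lower in both genotypes and none with the mouse as a block, beside 7.62% higher and 4.87% lower over all genes tested, with median log2 fold changes of 0.00 and -0.22 against -0.11 over all genes in each genotype, and with plain library totals none was higher and 11 lower. Hmgcs1, the synthase early in the pathway, passed in Rag2-/- mice alone (log2 0.68 ± 0.23, adjusted p = 0.0392, with the block 0.294), and Fdft1, the squalene synthase, in neither (0.12 ± 0.38 and -0.47 ± 0.38); with plain library totals Hmgcs1 and Fdft1 were negative in both genotypes.

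Of 25 tested glutamate receptor genes, 4 were higher and 8 lower in both genotypes (none and 14 with plain library totals, 4 and 5 with the mouse as a block), beside 7.62% and 4.87% of all genes tested. Those lower included the AMPA receptor subunits Gria2, Gria3 and Gria4, the kainate receptor subunits Grik1 and Grik3, and the NMDA receptor subunits Grin2d and Grin3a. Gria2 stood at 322.5, 448 and 484 normalized CPM in control OPCs (lowest, median and highest) and at 493, 444, 416, 426.5 and 539 in Rag2-/- OPCs, against 179.9, 194.2, 294 and 313 in control and 192.7, 191.0, 245.8 and 280 in Rag2-/- oligodendrocytes. The fall was 1.74-fold and 2.09-fold, without overlap (edgeR adjusted p = 1.39e-03 and 1.28e-04). Grin3a fell 4.96-fold and 4.61-fold, and Grik1 2.05-fold and 3.40-fold with the control call lost under the block (adjusted p = 0.0975). Those higher were Grin1, Grin2a, Grin2b and the metabotropic receptor Grm3, of which Grin2b rose from 99.5 ± 19.4 (SD, n = 6) to 454 ± 234 (n = 4) in controls (log2 2.15 ± 0.32). Neuronal markers were higher in the same libraries: 12 of 15 tested rose in both genotypes (8 with the mouse as a block, 2 rose and 1 fell with plain library totals), among them Snap25, 4.92-fold and 4.20-fold, and Syt1, 4.07-fold and 3.10-fold. Snap25 stood at 586, 302, 1257 and 2207 in control oligodendrocytes, lowest in pair 3 and highest in pair 6, and the part of these transcripts in the gains of Grin1, Grin2a and Grin2b was not tested.

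Of 38 tested genes in the list of voltage-gated ion channels and related genes, 8 were higher and 8 lower in both genotypes, beside 7.62% and 4.87% of all genes tested. The counts were 3 and 5 with the mouse as a block, and 1 and 20 with plain library totals. Among the lower genes of this list is Cacng4, the auxiliary subunit of AMPA receptors also counted under OPC identity. Kcnd2, an A-type potassium channel of precursors, stood at 54.2, 64.0 and 77.8 normalized CPM in control OPCs (lowest, median and highest) and at 54.2, 64.6, 55.9, 63.0 and 52.5 in Rag2-/- OPCs, against 16.6, 23.6, 21.4 and 7.92 in control and 10.8 (lowest) to 27.2 (highest) in Rag2-/- oligodendrocytes. It fell 3.60-fold and 3.72-fold without overlap (edgeR adjusted p = 2.36e-05 and 2.92e-05). Its partner Kcnd3 and the auxiliary protein Kcnip3 fell with it, the latter from 553 ± 77.7 (SD, n = 6) to 100.4 ± 14.9 (n = 4) in controls. Kcnh8 fell 18.9-fold and 8.39-fold, and the Rag2-/- call was lost with the block (adjusted p = 0.108). The sodium channel Scn3a fell 1.88-fold and 3.01-fold, with the control call lost (0.0813). Among gains were the Kv1 subunit Kcna1 (log2 2.63 ± 0.21 and 3.03 ± 0.22) and Kcnj10, the inward rectifier that takes up potassium around axons (0.64 ± 0.15 and 0.63 ± 0.16), whose calls in both genotypes were lost with the block (0.0796 and 0.107). Neuron markers were higher in the same libraries, and their part in the channel gains was not tested.

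Of 26 tested matrix genes, 12 were lower, 3 higher and 11 not called in both genotypes (lower and higher 21 and 2 with plain library totals, 10 and 3 with the mouse as a block), with median log2 fold changes of -1.64 and -2.07. The hyaluronan-binding proteoglycan Vcan stood at 764, 967 and 1022 normalized CPM in control OPCs (lowest, median and highest) and at 808, 816, 828, 791 and 996 in Rag2-/- OPCs, against 106.0, 207, 90.1 and 67.9 in control and 121.1, 194.3, 143.6 and 54.2 in Rag2-/- oligodendrocytes. It fell 7.97-fold and 6.65-fold without overlap (edgeR adjusted p = 2.20e-07 and 9.24e-07). Ncan fell 3.76-fold and 3.19-fold, and the link protein Hapln1 3.17-fold and 7.09-fold, whereas Hapln2, the link protein of the node of Ranvier, rose 19.7-fold and 14.3-fold from means of 3.04 and 3.23. Hapln4 and Spock3 were the other gains, in which the part of neuronal RNA was not tested. Tnc passed in Rag2-/- mice alone (log2 -3.01 ± 0.92, adjusted p = 0.0235).

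Part of the microtubule list rose. Of 30 tested, 13 were higher and none lower in both genotypes, 13 and none with the mouse as a block, beside 7.62% and 4.87% of all genes tested. With plain library totals the split became 11 and 12, beside 424 and 6466 of all 18657 genes. Tubb4a, the beta-tubulin of oligodendrocytes, stood at 194.6, 230 and 449 normalized CPM in control OPCs (lowest, median and highest) and at 209, 446, 184, 262 and 317 in Rag2-/- OPCs, against 3035, 2443, 2095 and 2296 in control and 2329, 2092, 2316 and 2611 in Rag2-/- oligodendrocytes. The gain was 9.29-fold and 8.26-fold without overlap (edgeR adjusted p = 7.87e-10 and 4.45e-09). Tppp, which nucleates microtubules in myelin sheaths, rose 6.40-fold and 6.66-fold, and Mapt, tau, 4.97-fold and 4.53-fold, with Map4, Map7, Map1a, Map1b and several stathmins. Neuron markers were higher in the same libraries (summed level 699 to 1648 normalized CPM in OPCs and 1716 to 5188 in oligodendrocytes), and their part in the values of Mapt, Map1a, Map1b and the stathmins was not tested. Tubb3 (0.61 ± 0.38 and -0.51 ± 0.40) and Map2 (0.21 ± 0.14 and -0.12 ± 0.15) did not pass; under plain library totals both were negative in controls as well. Of the membrane glycoproteins Gpm6a and Gpm6b, which are known for neurite and filopodium growth, Gpm6b rose 2.54-fold and 3.04-fold from 399 ± 60.8 (SD, n = 6) and 409 ± 36.8 (n = 5), and Gpm6a fell 1.76-fold and 1.81-fold (edgeR adjusted p = 0.0132 and 0.0122). With plain library totals Gpm6a kept its calls and the log2 values of Gpm6b were 0.20, which did not pass, and 0.47.

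Set against the other glia of the study (12 astrocyte and 12 microglia libraries, scaled together with the 19), 878 (80.2%) of the 1095 genes gained at least 2-fold in both genotypes had their highest mean in oligodendrocytes, 176 (16.1%) in microglia and 41 (3.74%) in astrocytes. Of the 768 lost, 510 (66.4%) were highest in OPCs, 193 (25.1%) in astrocytes and 65 (8.46%) in microglia. Mbp, for example, averaged 19960 normalized CPM in oligodendrocytes, 2630 in astrocytes, 333 in OPCs and 52.4 in microglia, and Ptprz1 347, 1206, 2285 and 17.9 in that order. The 1095 and the 768 genes were chosen for their difference between OPCs and oligodendrocytes in the same libraries, so these shares are partly set by the choice. None of the gained genes was highest in OPCs and none of the lost in oligodendrocytes, which the choice brings about. The shares over all genes tested are not given. Of 12 microglia markers none was called in both genotypes, with P2ry12 at log2 1.02 ± 0.42 and 1.26 ± 0.45 (adjusted p = 0.0970 and 0.0510) and Csf1r at 0.86 ± 0.45 and 0.98 ± 0.48, and without the 4 libraries of pair 3 there were 2 higher; under plain library totals both genes lay near 0 or below (-0.08 and 0.17, -0.23 and -0.10). Of 13 astrocyte markers 3 were lower in both genotypes, and none without pair 3; Aqp4 passed in Rag2-/- mice alone (log2 -1.77 ± 0.56, adjusted p = 0.0279) and Aldh1l1 likewise (-2.25 ± 0.62, 0.0130; with the block 0.137), and Slc1a2 in neither. The part of these cells in the genes whose highest mean lay in microglia or astrocytes was not tested.

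The gains also held more pseudogenes. Of the 1422 genes higher in both genotypes 169 (11.9%) were annotated as pseudogenes and 1144 (80.5%) as protein-coding, against 16 (1.76%) and 852 (93.8%) of the 908 lower, and 8.22% and 74.3% of all genes tested. Pseudogenes share sequence with their parent genes, so reads of the parent can be counted there. Of 13 mitochondrially encoded protein genes in the list 8 passed the filter on low counts and 7 rose in both genotypes; mt-Co1 was at 7010 to 17100 normalized CPM in OPC libraries and 28400 to 64220 in oligodendrocyte libraries, 4.15-fold and 3.79-fold higher. Genes that respond to tissue dissociation moved both ways, 3 higher and 4 lower of 19, beside 7.62% and 4.87% of all genes tested. The counts were 2 and 2 with the mouse as a block, and 1 and 11 with plain library totals. Jun fell 2.97-fold and 2.80-fold. Fos passed in Rag2-/- mice alone (log2 -0.55 ± 0.16, edgeR adjusted p = 0.0194, with the block 0.161), while Egr1 did not pass. Of the T and B lymphocyte markers 4 were counted well enough to test, and Igkc, an immunoglobulin light chain singled out after its values were seen, was at 0 in all control OPCs and at a mean of 0.102 ± 0.229 (SD, n = 5) in Rag2-/- OPCs, against 29.7 ± 18.9 (n = 4) in control and 32.5 ± 13.99 (n = 4) in Rag2-/- oligodendrocytes; Cd3e was too low to test. The part of the hybridoma antibody of the oligodendrocyte dish in the Igkc level was not tested.

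The step itself was then compared between the genotypes by an interaction term. For the 1863 genes called in both at 2-fold or more, the step in Rag2-/- mice differed from that in controls by less than 1 on the log2 scale for 1643 (88.2%), with a median standard error of the difference of 0.52, and the 95% interval of the difference lay within 1 of 0 for 493. These genes were chosen for calls of the same sign in both genotypes, so that share is partly set by the choice. It does not measure agreement over all genes, where the median standard error of the difference was 0.80. For Mbp the difference was -0.46 ± 0.49, for Myrf 0.16 ± 0.33, for Pdgfra 0.41 ± 0.39 and for Sox6 0.47 ± 0.51, none of which passed (edgeR adjusted p from 0.838 to 0.943). Across all genes tested 1636 (8.77%) had an unadjusted p under 0.05 for the difference. Of the gene lists, those for myelin and mature genes held no such member. The cell cycle list held 8 of 38, the growth factor and Notch list 6 of 30, the endothelial markers 4 of 10 and the mural and fibroblast markers 4 of 11. The T and B lymphocyte markers held 2 of 4 tested, with median log2 fold changes of 2.18 in controls and -1.33 in Rag2-/- mice. No lymphocyte marker was called for the difference after adjustment. Summed over the 13 markers of that list, levels overlapped, at 33.3 to 128.3 normalized CPM in control and 57.9 to 80.8 in Rag2-/- oligodendrocytes.

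After adjustment 4 genes (0.0214%) were called by edgeR, none higher and all with a larger fall in Rag2-/- mice: Ly6a, a surface protein of vessels and stem cells, Vwf, von Willebrand factor of endothelium, Notch3, the Notch receptor of mural cells, and the uncharacterized 4933426K07Rik. Ly6a stood at 0.782, 2.24 and 3.30 normalized CPM in control OPCs (lowest, median and highest), at 0.481, 0.594, 4.29 and 1.22 in control oligodendrocytes and at 11.4, 9.92, 3.12, 5.51 and 10.8 in Rag2-/- OPCs, and had no count in the 4 Rag2-/- oligodendrocyte libraries. Against a floor of 3 counts over that group it was at least 90.5-fold lower there than in Rag2-/- OPCs and at least 14.7-fold lower than in control oligodendrocytes. 4933426K07Rik also had no count in Rag2-/- oligodendrocytes, at least 69.8-fold lower than in Rag2-/- OPCs, with 0.594 to 4.45 in control oligodendrocytes. Vwf had 1 count there against 613 in Rag2-/- OPCs, a ratio of 197 with an exact 95% interval of 35.1 to 7770, and Notch3 1 against 954, a ratio of 306 (54.8 to 12100); such intervals cover counting error only, since reads of amplified RNA without molecular identifiers are not independent molecules. The adjusted p-values were 0.033, 0.033, 0.0331 and 0.0392 (edgeR), in the order Ly6a, Vwf, Notch3 and 4933426K07Rik.

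**Figure D5:**
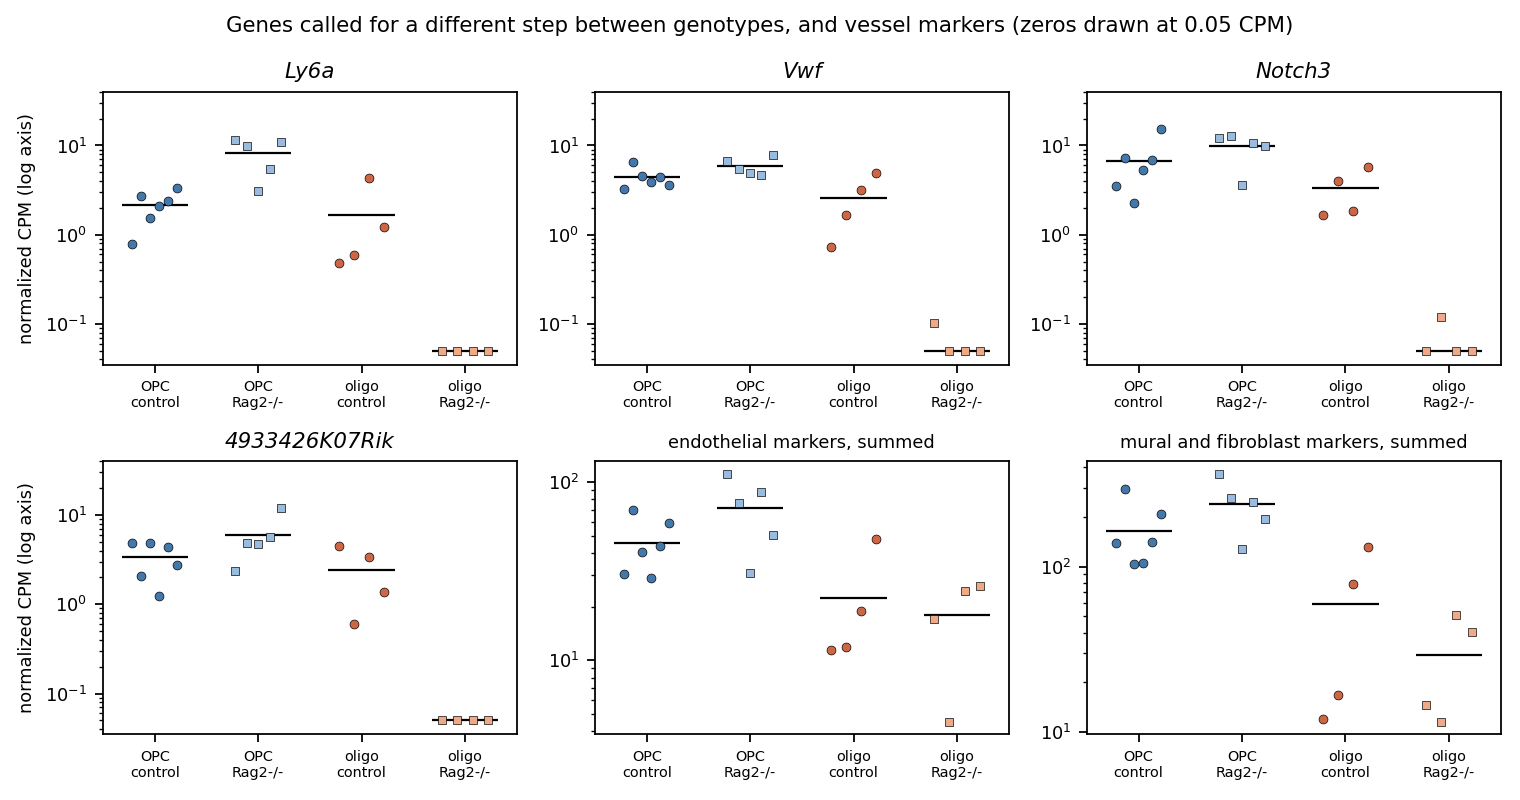
Normalized CPM (log axis, zeros drawn at 0.05) in each library of the 4 genes called for a different step between genotypes and of the summed endothelial and summed mural and fibroblast markers; points are libraries and lines are means. In Rag2-/- oligodendrocytes the 4 genes are at or next to 0, while the marker sums overlap those of control oligodendrocytes.

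With the mouse as a block all 4 had an adjusted p of 1, none was called without pair 3 or without the oligodendrocyte libraries of pair 6, and leaving out single libraries gave 0 to 12 called genes. Over 34 alternative fits Ly6a was called in 16, Vwf in 13, Notch3 in 15 and 4933426K07Rik in 12, with edgeR, DESeq2 or limma adjusted p-values from 1.39e-06 to 1 for Ly6a. Vessel markers moved in the same libraries. Summed endothelial markers (10 genes) ran from 29.1 to 69.8 in control OPCs, 30.9 to 111.3 in Rag2-/- OPCs, 11.4 to 47.8 in control oligodendrocytes and 4.52 to 26.0 in Rag2-/- oligodendrocytes, where 2 members, among them Cldn5, had no count in any library. Mural and fibroblast markers reached at most 293.9, 365, 130.9 and 50.8 in the same order, and 5 of 11 were lower in oligodendrocytes of both genotypes (2 with the mouse as a block, 10 with plain library totals). Dcn, a fibroblast proteoglycan, fell 65.6-fold in Rag2-/- mice and 2.10-fold, without passing, in controls, and its difference missed the threshold (log2 -4.96 ± 0.96, edgeR adjusted p = 0.0793). Flt1 and Vtn passed in Rag2-/- mice alone. The part of vessel cells in the 4 calls was not tested.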

How the data were processed

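RNA of immunopanned cortical OPCs and oligodendrocytes was amplified, sequenced as paired reads of 50 bases, aligned by the authors with STAR 2.7.8a to GRCm39 and counted per gene with HTSeq. The deposited values are raw counts per gene. Strand and overlap settings of the counting are not given in the sources used here, and pairs mapping to several places were set aside, so overlapping genes are uncertain. Rows that name no gene, 33.5% to 47.8% of pairs, were left out of totals and tests. Of 55416 gene identifiers 54749 matched GENCODE M39, which gave symbols and coordinates.

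Groups were taken from the labels. One edgeR 4.0.16 quasi-likelihood fit (R 4.3.3, TMM factors, filterByExpr with a minimum count of 10 and total of 15) covered all 19 libraries, with 4 groups of cell type by genotype and sex as a covariate. Contrasts were the step in controls, the step in Rag2-/- mice and their difference, with Benjamini-Hochberg adjustment over 18657 genes at 0.05. The fit was tested on simulated counts. No 2 libraries of a group agreed within sampling noise, the smallest chi-square per gene being 12.1. Libraries of a mouse pair by design, and their deviations correlated at a mean r of 0.06 (-0.01 to 0.13, n = 7) against -0.01 for different mice. Since the mouse block uses the 7 mice with both libraries, its counts stand beside most lists that it changes. Named genes were the 12 most gained and 12 most lost protein-coding genes, marked members of 24 gene lists, genes called for the difference and label checks. Some genes that this rule names are not reported here. The members and lists were chosen with earlier results of these data known. Alternatives were other scalings and filters, DESeq2 1.42.0, limma 3.58.1 voom, no sex term, the mouse block, mice with both libraries, genotypes alone, heterozygous controls only and each library left out. Leaving out pair 3 and the oligodendrocyte libraries of pair 6 was added after seeing the data.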

Additional observations from a re-analysis of the deposited data

Results flagged for a closer look

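In 38 of 479 groups of 4 to 6 libraries tested, 1 library lay apart from the others by Dixon's criterion. Chance alone gives about 1 in 20, a rate that does not hold for groups near 0 counts. All values are normalized CPM and no cause was tested. Among control OPCs these were Galnt10 at 94.5, Cav1 at 96.7 and Fos at 433.0 in replicate 1, Stk32a at 48.4, Cldn5 at 6.45 and Cd3e at 0.0993 in replicate 2, Csf1r at 312.7 in replicate 3, and Olig1 at 892, Nkx2-2 at 55.3 and Ncan at 820.2 in replicate 4. Among Rag2-/- OPCs they were Cav1 at 93.0, Notch1 at 108.4, Spry4 at 24 and Gria3 at 145.9 in replicate 1, Mog at 20.7 and Trf at 96.8 in replicate 2, Elovl7 at 7.11, Csf1r at 314.5 and Jun at 297.0 in replicate 3, and Dll3 at 8.03 and Vcan at 996 in replicate 6. Mog and Trf of Rag2-/- replicate 2 were its group's highest.

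Among control oligodendrocytes the libraries that lay apart were replicate 1 for Ermn at 823, Hes5 at 4.81 and Dll3 at 1.20, replicate 3 for Ptprz1 at 476.0 and Sox11 at 26.5, replicate 5 for Aldh1l1 at 13.2, and replicate 6 for Zfp488 at 1.22, Tnc at 12.6, Aqp4 at 80.8, Flt1 at 12.6 and Vtn at 29.5. Among Rag2-/- oligodendrocytes they were replicate 1 for Vwf at 0.103, replicate 3 for Zfp536 at 150.0, Cd3e at 2.14 and Notch3 at 0.119, replicate 5 for Tnc at 6.76, and replicate 6 for Lpar1 at 306.2. Vwf and Notch3 each had 1 count over that group, so the library that held it lay apart by construction.

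For 4 genes the step differed between the genotypes by the interaction term of the edgeR fit. The log2 difference was -9.21 for Ly6a, -6.47 for Vwf, -6.87 for Notch3 and -8.77 for 4933426K07Rik, values that depend on the prior count because the Rag2-/- oligodendrocyte libraries hold 0 or 1 count.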

How the results depend on the processing

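With library totals 9188 genes were called in controls, 9054 in Rag2-/- mice, 6890 in both and 5736 in both at 2-fold. On the log2 scale Fyn (-1.04), Erbb3 (-0.73), Cdkn1c (-0.98), Gal3st1 (-0.62) and Grm7 (-0.77) then turned in Rag2-/- mice, Fdft1 (-1.06), Tubb3 (-0.59), Map2 (-0.96), P2ry12 (-0.0805) and Egr1 (-0.70) in controls, and Tcf7l2 (-1.15 and -0.49), Ccnd2 (-0.95 and -0.68), Hmgcs1 (-0.84 and -0.47), Csf1r (-0.23 and -0.10) and the summed microglia markers (-0.319 and -0.0442) in both. With the mouse as a replicate block counts were 2115, 1673, 1251 and 1161, and with mice giving both libraries 2026 in Rag2-/- mice and 1431 in both; Cdkn1c (Rag2-/-, -0.0493) and Fdft1 (controls, -0.087) turned under the block, and Slc1a2 (controls, 0.0239) and Egr1 (Rag2-/-, 0.0165) in those mice. The 4 genes differing between genotypes became 170 without the count filter, 149 and 251 with DESeq2 on filtered and all genes, 9 without sex, and 0 with voom, the block, mice with both, heterozygous controls, or without pair 3 or pair 6 oligodendrocytes (edgeR 1636 at an unadjusted p under 0.05; 973 with voom and 567 with the block).

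Genes that did not pass changed sign elsewhere. Without the filter these were Tcf7l2 (controls, -0.0482) and Cdkn1c (Rag2-/-, -0.0016), with voom Nkx2-2 (Rag2-/-, 0.0181), Erbb3 (controls, 0.23) and Cdkn1c (Rag2-/-, -1.07), and with heterozygous controls Tcf7l2 (-0.0055), Erbb3 (0.14) and Fdft1 (-0.26). Without pair 3 they were Fyn (-0.0955), Cdkn1c (-1.37) and Egr1 (0.0769) in Rag2-/- mice and Grm5 (0.0694), Slc1a2 (0.0426) and 4933426K07Rik (0.0135) in controls. Without pair 6 oligodendrocytes they were Bmp4 (0.14), Tcf7l2 (-0.0314), Erbb3 (0.20) and Fdft1 (-0.13) in controls and Fyn (-0.03), Nkx2-2 (0.0779), Cdkn1c (-0.10), Grm7 (-0.0725) and Iftap (-1.58) in Rag2-/- mice.

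Leaving out 1 library gave 2975 to 4071 genes in controls, 3035 to 4249 in Rag2-/- mice, 1988 to 2315 in both, 1617 to 1868 at 2-fold and 0 to 12 for the difference. That count was 7, 12, 9 and 6 without oligodendrocyte control 1, 3, 5 or 6, 4 without Rag2-/- oligodendrocyte 6, 2 without OPC control 6 or Rag2-/- OPC 3, and 0 without any other library. Log2 ranges crossing 0 in controls were -1.18 to 0.11 for Bmp4, -0.44 to 0.11 for Fyn, -0.0693 to 0.0715 for Tcf7l2, -0.32 to 0.21 for Erbb3, -0.13 to 0.51 for Fdft1, -0.46 to 0.13 for Grm5, -0.49 to 0.0906 for Slc1a2 and -0.63 to 0.086 for Iftap. In Rag2-/- mice they were -0.0875 to 0.19 for Fyn, -0.36 to 0.13 for Nkx2-2, -1.23 to 0.47 for Cdkn1c, -0.0606 to 0.65 for Grm7, -0.16 to 0.0503 for Egr1 and -1.59 to 2.86 for Iftap. The cause was not tested.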
